A study of Homo sapiens with 12 samples.

Results

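The genes described here are the sensors of foreign RNA and the factors that carry their signal to interferon-induced genes: RIGI (listed under its older symbol DDX58), IFIH1, TLR3, EIF2AK2, MAVS, IRF3, IRF7 and IRF9. They were taken as the genes of a list of 9 to which the platform annotation assigns a probe set of their own. This held for 8 of the 9, and 1 listed gene is not analysed here. The 8 genes had 19 probe sets, 18 of which passed the filter on dim probe sets, and each gene was tested on its probe set of highest mean signal, as 8 of 14061 genes tested.

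The study hybridised RNA of 2 human cancer cell lines to 12 Affymetrix U133 Plus 2.0 arrays. The lines were the bladder carcinoma line SW780, grown in Leibovitz's L-15, and the lung carcinoma line A549, grown in RPMI1640. In each line the groups were cells given siKDM3A, a duplex that targets the transcript of KDM3A, an enzyme that takes methyl groups off histones, and cells given siFFluc or siEGFP, duplexes named for reporter genes and taken here as controls. All groups shared a lipofectamine 2000 transfection with 100 nM of duplex for 24 h, and none of the arrays was of cells without a duplex. Each of the 6 groups had 2 arrays, and the labels do not say whether these came from separate cultures, so p-values measure the spread between arrays, which may be technical.

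Cells recognise foreign RNA in several places. RIG-I (encoded by RIGI) and MDA5 (encoded by IFIH1) bind RNA duplexes in the cytoplasm and signal through the mitochondrial adaptor MAVS, TLR3 binds duplexes in endosomes, and PKR (encoded by EIF2AK2) is a kinase that halts translation once it has bound duplex RNA. The first branches activate the transcription factors IRF3 and IRF7, which switch on interferon genes, and secreted interferon then acts on receptors whose JAK kinases assemble IRF9 with STAT proteins into the complex ISGF3. ISGF3 binds interferon-stimulated response elements, which hold repeated GAAA blocks, and raises antiviral genes, several of the sensors and IRF7 among them.

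The start-site regions of 6 of the 8 genes were in the RefSeq promoter table of build GRCh38.p14, which gives 250 bases before to 50 after each start. IRF3 and IRF7 were not among them. Of these windows 4 are shown because their genes carry the largest differences described below or were called in SW780 after siKDM3A, and capitals mark the match named for each. RIGI lies at chr9:32526147-32526446 on the minus strand, with capitals at GAAANGAAA. IRF9 lies at chr14:24161015-24161314 on the plus strand, with capitals at GAAACT. EIF2AK2 lies at chr2:37156931-37157230 on the minus strand and TLR3 at chr4:186068906-186069205 on the plus strand, both with capitals at GAAA, any 2 bases and GAAA again, which in TLR3 reads on the opposite strand.
RIGI: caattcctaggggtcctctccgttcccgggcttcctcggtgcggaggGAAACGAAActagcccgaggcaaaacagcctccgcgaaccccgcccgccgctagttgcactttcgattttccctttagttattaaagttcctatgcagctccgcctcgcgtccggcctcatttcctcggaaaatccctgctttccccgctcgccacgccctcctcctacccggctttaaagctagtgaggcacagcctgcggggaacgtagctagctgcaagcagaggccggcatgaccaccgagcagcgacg
IRF9: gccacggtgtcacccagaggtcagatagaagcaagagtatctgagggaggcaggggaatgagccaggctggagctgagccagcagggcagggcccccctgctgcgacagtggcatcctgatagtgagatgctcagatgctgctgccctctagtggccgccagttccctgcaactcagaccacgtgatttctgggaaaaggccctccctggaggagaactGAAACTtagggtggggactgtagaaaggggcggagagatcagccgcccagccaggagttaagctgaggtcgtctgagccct
EIF2AK2: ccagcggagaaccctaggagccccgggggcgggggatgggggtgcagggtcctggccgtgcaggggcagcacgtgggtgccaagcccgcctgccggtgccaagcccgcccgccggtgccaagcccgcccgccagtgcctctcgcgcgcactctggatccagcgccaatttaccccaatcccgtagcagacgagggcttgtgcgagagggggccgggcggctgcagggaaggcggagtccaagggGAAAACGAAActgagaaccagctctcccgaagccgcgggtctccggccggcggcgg
TLR3: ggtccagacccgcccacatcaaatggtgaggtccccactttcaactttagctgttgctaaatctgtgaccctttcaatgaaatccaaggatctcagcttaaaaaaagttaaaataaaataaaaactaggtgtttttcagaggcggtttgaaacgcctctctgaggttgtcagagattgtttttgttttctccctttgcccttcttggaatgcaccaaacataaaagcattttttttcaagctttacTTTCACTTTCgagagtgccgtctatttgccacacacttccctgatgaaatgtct

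Both strands were searched. The pattern of 2 GAAA blocks with any 2 bases between them occurred in the windows of IFIH1 (3 matches, of which 2 overlap each other), TLR3 and EIF2AK2, and in 3.57% of all 35116 windows of 300 bases. GAAANGAAA, with 1 base between the blocks, occurred in RIGI and in 3.12% of windows. The shorter GAAACT, chosen after the sequences had been seen, occurred in RIGI, IFIH1, EIF2AK2 and IRF9 and in 14.8% of windows, and in RIGI and EIF2AK2 it overlaps the longer match. No match to these 3 patterns was found in the MAVS window. These matches are letters in a window and were not tested for binding.

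Array medians ranged from 50.2 to 58.9. They were 58 and 54.2 on the SW780 siKDM3A arrays against 50.2 to 54.1 on the SW780 controls, and 52.9 and 51.7 on the A549 siKDM3A arrays against 57.3 to 58.9 on the A549 controls. The part of this in the results was not tested, and values after scaling to a common median are given where they change a call of the 8 genes. That scaling also moves the median of all genes. For siKDM3A in A549, 84.5% of all calls were then higher, against 45.6% as deposited. KDM3A itself had signals of 209.9 ± 18.5 on siKDM3A arrays against 393.7 ± 33.6 on controls in SW780 (SD, n = 2 and 4; log2 difference -0.86, adjusted p = 0.000274) and of 702.4 ± 14.1 against 1391 ± 106 in A549 (-0.97, adjusted p = 8.34e-05). Between the control lines 30.1% of all genes tested were higher in SW780 and 38.8% lower. Of the urothelial markers, 7 of 7 tested were higher in SW780, among them GATA3 at 10802.6 to 16048.8 in SW780 and 302.6 to 421.7 in A549. Of the lung markers 4 were tested, of which 1 was higher in SW780 controls and 3 lower, and NKX2-1 and SFTPD lay below the filter. FOXA2 had 742.9 to 1213.8 in A549 against 34 to 66 in SW780. All 5 epithelial markers exceeded a signal of 100 in both lines and were higher in SW780 controls. In SW780, 2 of the 5 were lower with siKDM3A (CDH1 by -0.26 and KRT8 by -0.34), where 6.15% of all genes were lower. There 3 were higher with siFFluc than with siEGFP (CDH1, KRT18 and KRT19, by 0.37 to 0.44), where 2.97% of all genes were higher. In A549 0 of 5 passed in either comparison. The part of these markers in the results was not tested. The leukocyte gene PTPRC was at 3.9 to 24 in SW780 and 4.5 to 19.5 in A549, and the 6 leukocyte markers summed to 141.6 to 268.4 in SW780 and 186.7 to 364.9 in A549. The fibroblast markers COL1A2 and COL3A1 lay below the filter, and the 6 on that list summed to 485.4 to 925.6 in SW780 and 984.9 to 1368 in A549.

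The first question was whether the control cells of the 2 lines differ in this machinery. They did for 6 of the 8 genes, in both directions. SW780 controls had far more signal for the endosomal sensor TLR3 and less for RIGI, IFIH1, EIF2AK2, IRF7 and IRF9, while MAVS and IRF3 did not pass the test. In limma, 1 of the 8 genes was higher and 5 were lower at an adjusted p under 0.05, where 30.1% of all genes tested were higher and 38.8% lower, 68.9% in all. A call is therefore common between these lines, and the sizes below say more than the count. As each array measures RNA of a whole culture, fewer cells with a transcript and less of it per cell cannot be told apart. The SW780 controls lay wholly above the A549 controls for 1 of the 8 genes and wholly below for 4, against 25.3% and 33.8% of all genes. Differences are SW780 minus A549 in log2(signal + 16), with SE, over 4 control arrays a line, and each adjusted p of a gene is limma's with the Benjamini-Hochberg adjustment over 14061 genes. Values of further probe sets come from a separate limma fit adjusted over the 32768 probe sets kept.

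TLR3, the endosomal receptor for duplex RNA, had signals of 1334.3 and 1520 with siFFluc and 1183.7 and 1247.7 with siEGFP in SW780, against 65.2 and 116.5 with siFFluc and 58.6 and 131.2 with siEGFP in A549. Every SW780 value was far above every A549 value, and of the A549 values 2 lay near the array medians of that line (57.3 to 58.9) and 2 above them. The fitted difference was 3.67 ± 0.20 (12.8-fold, adjusted p = 1.93e-09). Its size depends on a dim A549 level for which no detection call was used here, and it ran from 3.17 to 4.01 over the settings tried. The upper end is the difference between the siKDM3A arrays of the lines, not between controls. Its second probe set above the filter, 239587_at, gave 3.05 ± 0.16 (adjusted p = 1.21e-09), and the third, 242667_at, was below the filter.

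RIGI had 340.7 and 373.1 with siFFluc and 335.7 and 304.2 with siEGFP in SW780, against 1567.8 and 1521.8 with siFFluc and 1295.9 and 1282.3 with siEGFP in A549. Every SW780 value was below every A549 value, by 4.04-fold between the fitted means (-2.01 ± 0.07, adjusted p = 2.53e-11). The other RIGI probe sets, 222793_at and 242961_x_at, gave -2.03 ± 0.10 and -3.09 ± 0.16.

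IFIH1, the gene of MDA5, had 334.4 and 331.6 with siFFluc and 309.3 and 415.2 with siEGFP in SW780, against 698.2 and 671.9 with siFFluc and 661.4 and 474.7 with siEGFP in A549. The groups did not overlap, although the second A549 siEGFP array was low. The difference was -0.81 ± 0.12 (adjusted p = 2.96e-05). The probe sets of IFIH1 disagreed: the dimmer 1555464_at, at 71.4 to 102.9 on the A549 controls, ran the other way (0.41 ± 0.16, adjusted p = 0.043), and 216020_at did not pass (0.37 ± 0.23, adjusted p = 0.178).

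EIF2AK2, the gene of PKR, had 3022.7 and 2772.7 with siFFluc and 1643.3 and 1745.3 with siEGFP in SW780, against 3212.9 and 3144.9 with siFFluc and 2636.3 and 2711.5 with siEGFP in A549. The SW780 and A549 controls overlapped, because the SW780 siFFluc arrays reached the A549 siEGFP level. The difference over both duplexes was -0.39 ± 0.06 (adjusted p = 9.02e-05). Under siEGFP alone it was -0.65 ± 0.09 (adjusted p = 3.22e-05) and under siFFluc alone -0.13 ± 0.09 (adjusted p = 0.216), contrasts in which 58.6% and 60.8% of all genes were called. The other probe sets, 213294_at and 242898_at, were lower in SW780 controls by -0.73 ± 0.06 and -0.54 ± 0.14 in log2.

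MAVS, the adaptor shared by RIG-I and MDA5, had 1531 and 1727.4 with siFFluc and 1512 and 1702.1 with siEGFP in SW780, against 1268.3 and 1517.8 with siFFluc and 1424.6 and 1486.3 with siEGFP in A549. The ranges of the lines overlapped at their edge, and the difference of 0.18 ± 0.09 did not pass (adjusted p = 0.098, 95% interval -0.02 to 0.39). It passed after median scaling (0.34, adjusted p = 0.0079). Its dimmer probe sets 229741_at and 231829_at were lower in SW780 controls (-0.65 ± 0.15, adjusted p = 0.00221, and -0.41 ± 0.15, adjusted p = 0.0299), and 226495_at gave -0.04 ± 0.08, so that the sign for MAVS depends on the probe set.

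IRF3, the factor that the sensors activate first and that cells hold ready, had 1608.3 and 1575.5 with siFFluc and 1483.5 and 1559.3 with siEGFP in SW780, against 1553.6 and 1540.7 with siFFluc and 1413.7 and 1455.8 with siEGFP in A549. The lines overlapped (0.06 ± 0.07, adjusted p = 0.47, 95% interval -0.10 to 0.22). After median scaling the difference was 0.22 (adjusted p = 0.0144).

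IRF7 is itself induced by interferon and amplifies the response. It had 161.6 and 163.3 with siFFluc and 180.3 and 123.8 with siEGFP in SW780, against 1212.7 and 1277.8 with siFFluc and 1035.9 and 1036.7 with siEGFP in A549. The highest SW780 control stood well under the lowest A549 control, and the difference was -2.74 ± 0.10, 6.7-fold (adjusted p = 5.14e-11).

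IRF9, the DNA-binding subunit of ISGF3, had 378 and 379.9 with siFFluc and 306.7 and 299.7 with siEGFP in SW780, against 2667.2 and 2711.8 with siFFluc and 2585.8 and 2477.1 with siEGFP in A549. Among the 5 genes lower in SW780 controls it had the largest difference on the tested probe sets, -2.89 ± 0.06, 7.39-fold (adjusted p = 2.13e-13). A probe set that the annotation assigns to RNF31 and IRF9 together, 220788_s_at, gave -0.16 ± 0.12 (adjusted p = 0.28) and was used for neither gene.

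**Figure D1:**
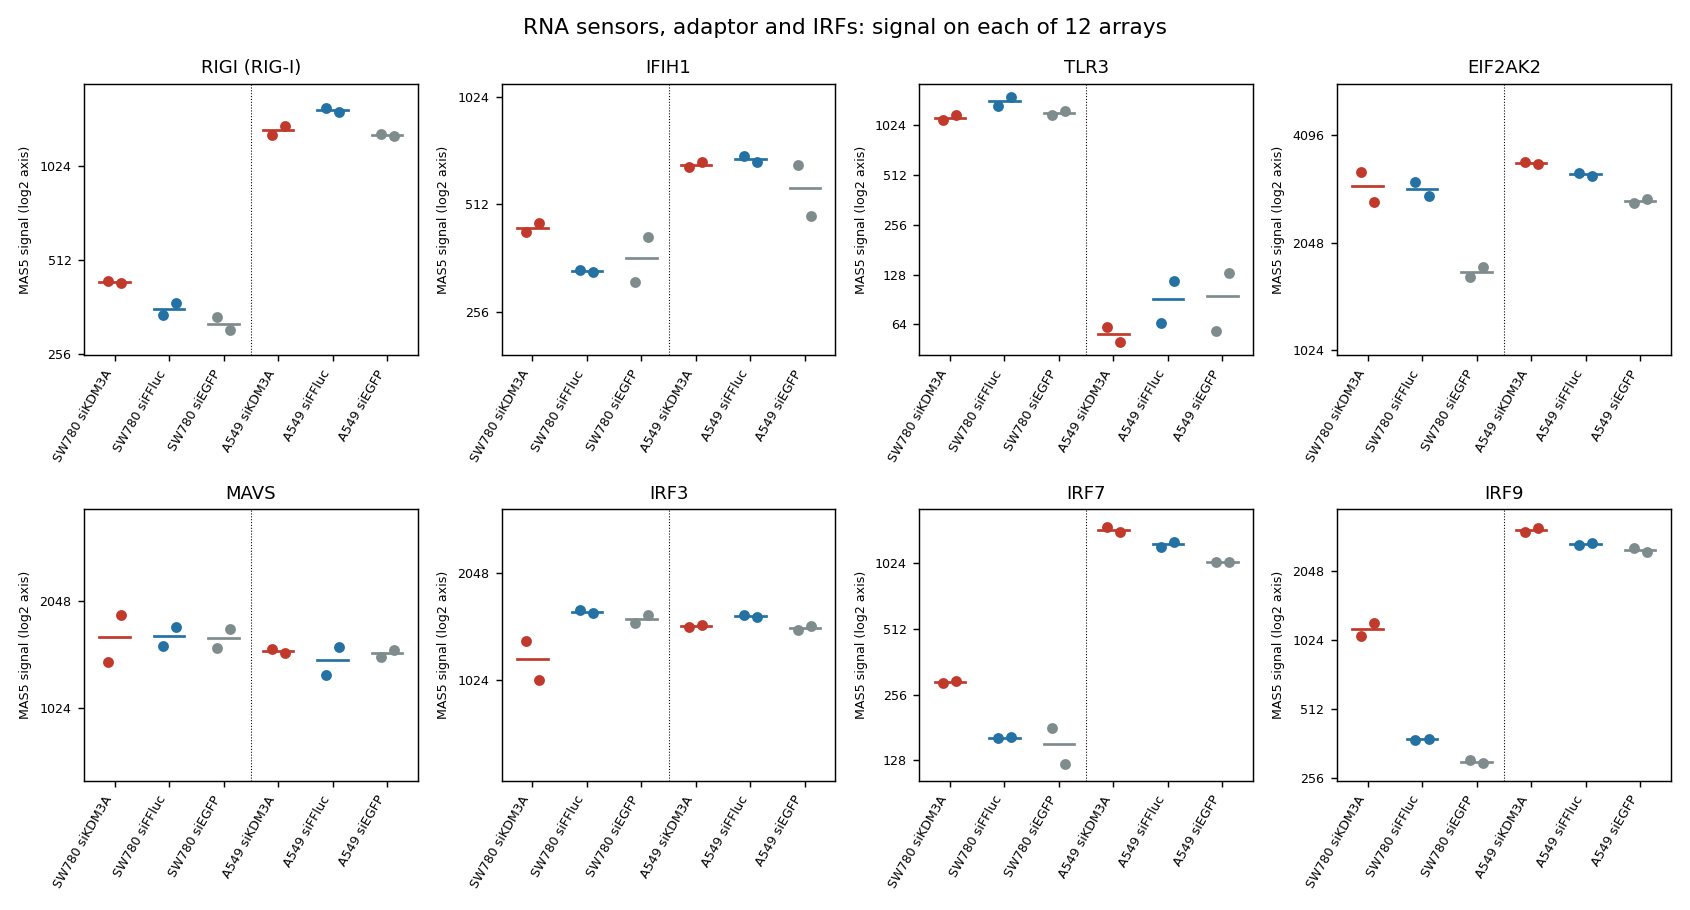
Signal of the tested probe set of each gene (vertical log2 axis, MAS5 units) on the 2 arrays of each group, points being arrays and bars group means. TLR3 stands at 1106.3 to 1520 in SW780 and at 50.1 to 131.2 in A549, while RIGI, IRF7 and IRF9 are lower in SW780 and IRF9 is raised on its 2 siKDM3A arrays.

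The next question was how each line responds to the duplexes, taking siKDM3A against the control arrays of the same line. In SW780, against both controls together, the signal of RIGI, EIF2AK2, IRF7 and IRF9 rose under siKDM3A and that of IRF3 fell, and IRF9 changed most. That is 4 of 8 genes higher and 1 lower, where 5.68% of all genes tested were higher and 6.15% lower, 11.8% in all. Against siFFluc alone limma called 3 of the 8, where 14.2% of all genes were called. RIGI and EIF2AK2 were not among the 3 (adjusted p = 0.0863 and 0.928). Both siKDM3A arrays lay above all 4 controls for 4 of the 8 genes and below them for 2, against 15.3% and 13.3% of all genes. In A549 limma called 0 of the 8 genes, where 5.33% of all genes were higher and 6.35% lower, 11.7% in all, although 4 of the 8 had an unadjusted p under 0.05. There the siKDM3A arrays lay above all controls for 3 of the 8 genes and below them for 0, against 17% and 19.9% of all genes. The median log2 difference of the 8 genes was 0.34 in SW780 and 0.07 in A549, beside 0.03 and -0.02 over all genes. The siKDM3A arrays of a line are compared with the same control arrays that enter the line difference above.

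IRF9 had 1062.8 and 1216.5 on the siKDM3A arrays of SW780, against its control values of 299.7 to 379.9. Both siKDM3A arrays lay far above all 4 controls, by 1.70 ± 0.08, or 3.25-fold (adjusted p = 6.44e-08). The difference was 1.55 ± 0.09 against siFFluc alone and 1.85 ± 0.09 against siEGFP alone, contrasts in which 14.2% and 6.19% of all genes were called. In A549 it had 3011.8 and 3161.8 with siKDM3A against 2477.1 to 2711.8 on the controls, also without overlap, and 0.24 ± 0.08 did not pass (adjusted p = 0.0563). It passed after median scaling (0.39, adjusted p = 0.0109) and without either of the SW780 siFFluc arrays (adjusted p = 0.0318 in both cases).

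The IRF9 response differed between the lines by 1.46 ± 0.11 (SW780 minus A549, adjusted p = 2.77e-05). It was the 1 gene of the 8 for which that test passed, where 1.78% of all genes were higher and 0.974% lower, 2.75% in all. Even so, IRF9 on the siKDM3A arrays remained lower in SW780, by -1.43 ± 0.09 (adjusted p = 1.43e-08), where 58.7% of genes were called between the lines.

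IRF7 had 290.1 and 295 on the siKDM3A arrays of SW780, against 123.8 to 180.3 on the controls. The arrays did not overlap and agreed closely, and the rise was 0.84 ± 0.13, 1.79-fold (adjusted p = 0.00111). In A549 it had 1501.5 and 1413.4 against 1035.9 to 1277.8, again without overlap, and 0.35 ± 0.13 did not pass (adjusted p = 0.0895). Median scaling gave 0.51 (adjusted p = 0.0207), and the call also appeared without SW780 siEGFP replicate 1 or 2 (adjusted p = 0.0357 and 0.0338). The difference between the responses was 0.49 ± 0.18 (adjusted p = 0.167), so a larger response in SW780 was not shown for IRF7.

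IRF3 moved the opposite way in SW780, with 1319 and 1023.2 on the siKDM3A arrays against 1483.5 to 1608.3 on the controls. Both siKDM3A arrays lay below the controls but differed from each other more than the controls did. The fall was -0.42 ± 0.09 (adjusted p = 0.00981), and without the second siKDM3A array -0.24 (adjusted p = 0.144). In A549 IRF3 had 1440.5 and 1457.6 against 1413.7 to 1553.6, inside the control range (-0.04 ± 0.09, adjusted p = 0.843, 95% interval -0.23 to 0.15). Under siKDM3A IRF3 was lower in SW780 than in A549 (-0.32 ± 0.10, adjusted p = 0.0182), the opposite sign from the controls. The test of the difference between the responses gave -0.38 ± 0.13 (adjusted p = 0.136). It passed after median scaling (-0.63, adjusted p = 0.00892). That scaling moved the median of all genes in this contrast to -0.21, and 1819 genes were then called lower against 118 higher. Without SW780 siKDM3A replicate 1 the difference for IRF3 was -0.56.

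RIGI had 436.8 and 432.1 on the siKDM3A arrays of SW780, against 304.2 to 373.1 on the controls. The rise of 0.35 ± 0.09 was small (1.27-fold, adjusted p = 0.0198) and did not hold under several settings. The adjusted p was 0.118 after median scaling and 0.0863 against siFFluc alone. It was 0.0579 without SW780 siEGFP replicate 2, 0.115 without SW780 siKDM3A replicate 1 and 0.099 without replicate 2. The other RIGI probe sets gave 0.14 ± 0.12 and 0.22 ± 0.20, neither of which passed. In A549 RIGI had 1291.1 and 1374.2 against 1282.3 to 1567.8, within the controls (-0.08 ± 0.09, adjusted p = 0.618), and the responses differed by 0.43 ± 0.12 (adjusted p = 0.0803, and 0.0311 without SW780 siFFluc replicate 2).

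IFIH1 had 427.2 and 454.7 on the siKDM3A arrays of SW780, above its 4 controls at 309.3 to 415.2, but the difference of 0.34 ± 0.14 did not pass (adjusted p = 0.155). In A549 it had 649.8 and 672.5 against 474.7 to 698.2 (0.09 ± 0.14, adjusted p = 0.761). TLR3 had 1106.3 and 1170.9 in SW780 against 1183.7 to 1520 (-0.21 ± 0.24, adjusted p = 0.65). In A549 its values were 61.9 and 50.1 against 58.6 to 131.2 (-0.54 ± 0.24, adjusted p = 0.183), and it passed without A549 siEGFP replicate 1 (-0.78, adjusted p = 0.0276). Neither sensor passed in either line on all arrays. The spread of a gene was estimated over both lines together, so the dim A549 values of TLR3 also enter its test in SW780. No conclusion about TLR3 in SW780 is drawn from that test. MAVS had 1378.5 and 1860.6 in SW780 against 1512 to 1727.4, its siKDM3A arrays falling on both sides of the controls (-0.01 ± 0.11, adjusted p = 0.964). In A549 it had 1498.7 and 1461.7 against 1268.3 to 1517.8 (0.06 ± 0.11, adjusted p = 0.817).

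**Figure D2:**
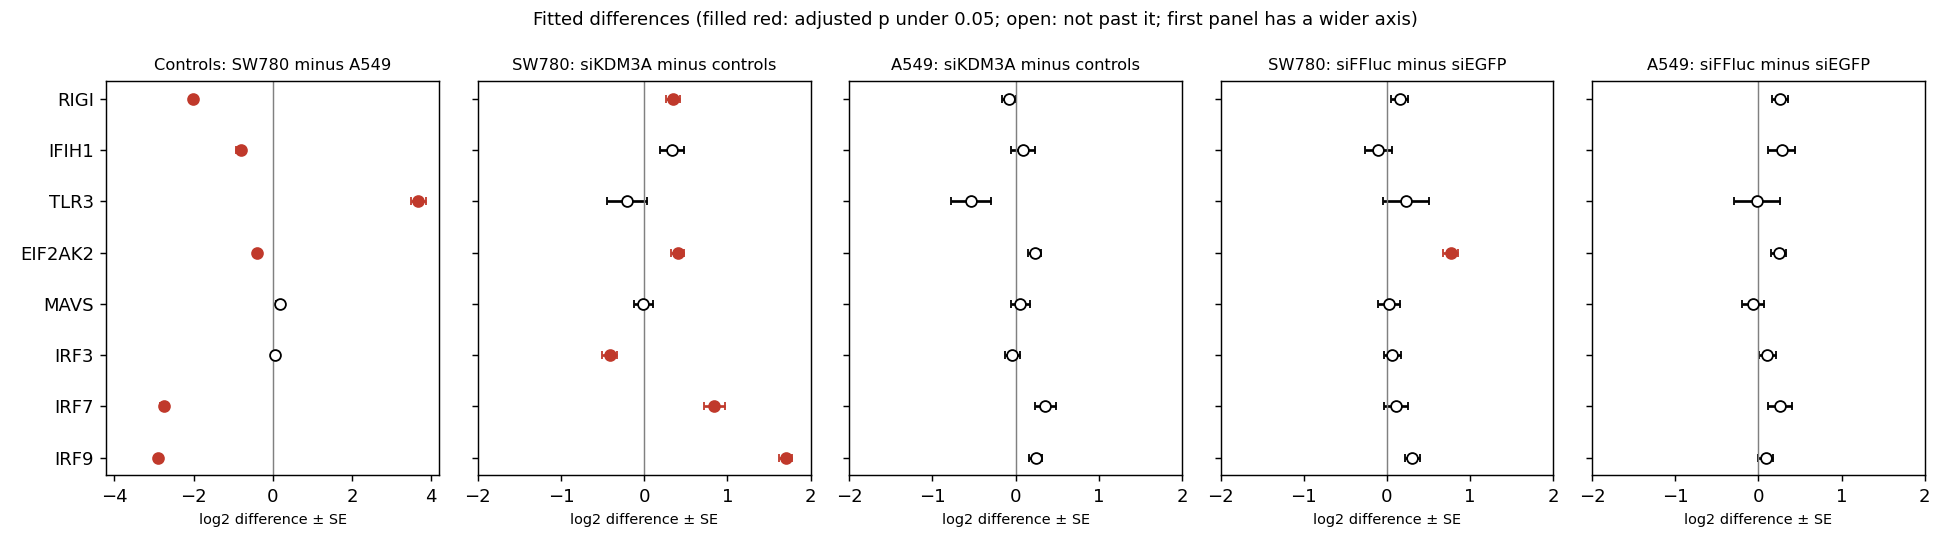
Fitted log2 differences (horizontal axes) with SE bars for the 8 genes in the line comparison of controls, the siKDM3A comparison in each line and siFFluc against siEGFP in each line, filled red where the adjusted p is under 0.05. The first panel has a wider axis. IRF9 is furthest to the right after siKDM3A in SW780, at 1.70, and EIF2AK2 is the 1 filled point of the siFFluc panels, at 0.77.

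EIF2AK2 followed the duplexes in another way. On the siKDM3A arrays of SW780 it had 3230.8 and 2657.3, which overlapped the siFFluc arrays at 3022.7 and 2772.7 and lay above the siEGFP arrays at 1643.3 and 1745.3. Against both controls together the difference was 0.40 ± 0.08 (adjusted p = 0.0055), against siEGFP alone 0.79 ± 0.09 (adjusted p = 0.000287) and against siFFluc alone 0.02 ± 0.09 (adjusted p = 0.928). The call for siKDM3A in SW780 thus rested on the siEGFP arrays, and it also ended without siKDM3A replicate 1 (adjusted p = 0.097). In A549 the values were 3441 and 3396.1 with siKDM3A, 3212.9 and 3144.9 with siFFluc and 2636.3 and 2711.5 with siEGFP. On this probe set siEGFP was again lowest, and the difference from siEGFP alone passed (0.35 ± 0.09, adjusted p = 0.0304, where 8.04% of all genes were called). That from both controls did not (0.23 ± 0.08, adjusted p = 0.0776). The comparison with both controls passed after median scaling (0.38, adjusted p = 0.00561) and without SW780 siFFluc replicate 1 or 2 (adjusted p = 0.0479 and 0.048) or SW780 siKDM3A replicate 1 or 2 (0.0421 and 0.0418).

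The comparison of the control duplexes asked whether siFFluc and siEGFP act alike on these genes. In SW780 limma called 1 of the 8, EIF2AK2, higher with siFFluc by 0.77 ± 0.09 (1.7-fold, adjusted p = 0.000461), where 2.97% of all genes were higher and 2.6% lower, 5.57% in all. In A549 it called 0 of the 8, 2 of them with an unadjusted p under 0.05, where 1.43% of all genes were higher and 1.49% lower, 2.92% in all, and EIF2AK2 gave 0.25 ± 0.09 (adjusted p = 0.23). The difference between lines in this contrast was 0.52 ± 0.13 for EIF2AK2 (adjusted p = 0.199, and 0.0369 without SW780 siFFluc replicate 2), and 0 of the 8 genes passed it, 1 with an unadjusted p under 0.05, where 0.0213% of all genes did. IRF9 was also above siEGFP in both SW780 siFFluc arrays (0.31 ± 0.09), short of the threshold (adjusted p = 0.0597). In SW780 the siFFluc arrays lay above both siEGFP arrays for 5 of the 8 genes and below them for 0, against 23.6% and 22.3% of all genes. The largest of the other 6 differences there was 0.23, for TLR3 (95% interval -0.38 to 0.83, from a spread that its dim A549 values also enter). In A549 the siFFluc arrays lay above both siEGFP arrays for 6 of the 8 genes and below them for 0, against 24.4% and 21.7% of all genes, and IFIH1 had the largest of these, 0.28 ± 0.16 (adjusted p = 0.548).

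The 3 EIF2AK2 probe sets did not agree on the duplexes. The tested one, 204211_x_at, carries the suffix that marks probes shared with other sequences. The second, 213294_at, had 1840.5 and 1718.4 with siKDM3A, 2205.4 and 1891.9 with siFFluc and 1646.9 and 1639 with siEGFP in SW780. There siKDM3A gave -0.04 ± 0.07 against both controls (adjusted p = 0.8) and siFFluc 0.31 ± 0.09 against siEGFP (adjusted p = 0.0621). The dimmest, 242898_at, had 380.1 and 296.9 with siKDM3A, 164.7 and 232.6 with siFFluc and 150.1 and 185.6 with siEGFP. It rose under siKDM3A by 0.84 ± 0.17 (adjusted p = 0.01) and did not pass for siFFluc against siEGFP (0.21 ± 0.20, adjusted p = 0.633). The siFFluc call of the tested probe set was thus not made by either of the others. In A549, 213294_at had 2640.7 and 2816.3 with siKDM3A, 3394.1 and 3296.4 with siFFluc and 2755.8 and 2811.4 with siEGFP. There, unlike on the tested probe set, siKDM3A overlapped siEGFP and lay below siFFluc (-0.16 ± 0.07 against both controls, adjusted p = 0.226). For 242898_at the siKDM3A difference in A549 was 0.24 ± 0.17 (adjusted p = 0.476).

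**Figure D3:**
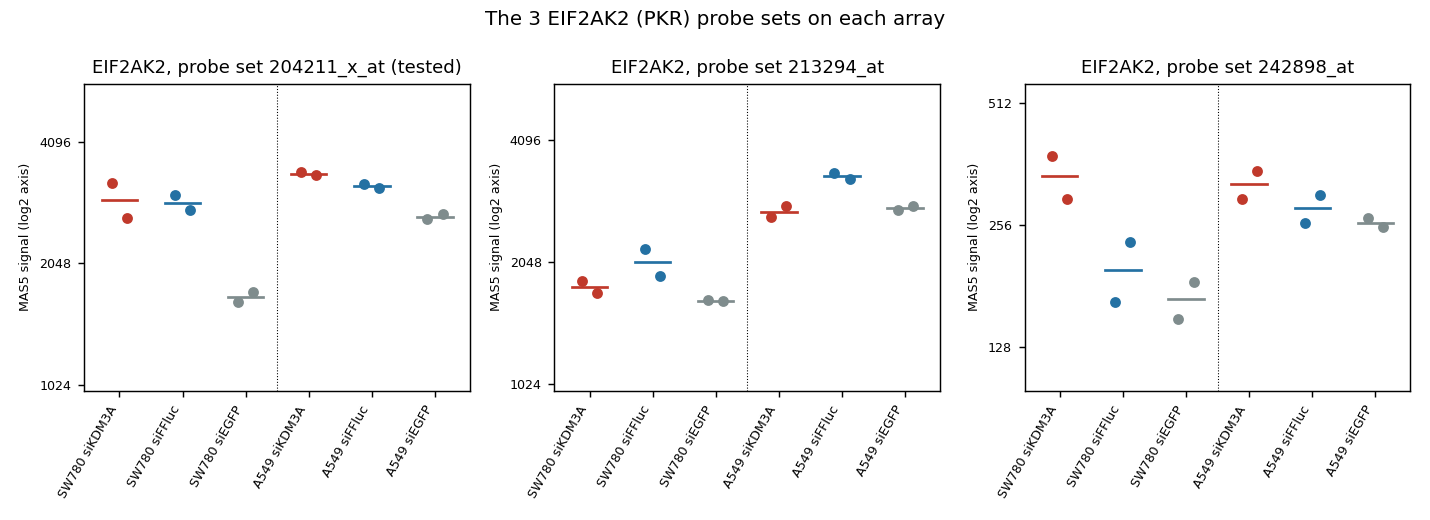
Signal of the 3 EIF2AK2 probe sets (vertical log2 axes, MAS5 units) on the 2 arrays of each group, points being arrays and bars group means. On the tested probe set siEGFP is lowest in both lines, and in SW780 siFFluc (3022.7 and 2772.7) and siKDM3A overlap, while on 242898_at siKDM3A stands above both controls in SW780.

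The other genes of the pathway were described from 9 lists. Their counts are to be read beside the shares over all genes. Between the control lines 30.1% of all genes were higher in SW780 and 38.8% lower, so a list count near these shares says little about the list. Under siKDM3A the shares were 5.68% higher and 6.15% lower in SW780 and 5.33% and 6.35% in A549. For siFFluc against siEGFP they were 2.97% higher and 2.6% lower in SW780 and 1.43% and 1.49% in A549. Among 12 tested of 16 other RNA sensors and cofactors, 1 was higher in SW780 controls and 11 lower, with a list median of -0.72 beside -0.11 over all genes. TLR7, an endosomal receptor for single-stranded RNA, was the higher one (79.92 ± 13.5 in SW780 and 8.7 ± 8.96 in A549, n = 4 each), with A549 below the array medians. DDX60, a helicase linked to RIG-I, was lower in SW780 (432 ± 75.5 and 1359 ± 62.2, difference -1.63). After median scaling 8 of the 12 were lower. Under siKDM3A, 4 of the 12 were higher in SW780 and 0 lower, and 2 were higher and 1 lower in A549. In SW780 the split was 3 higher and 3 lower against siFFluc alone and 3 higher and 1 lower after median scaling. OAS2, an oligoadenylate synthase that is switched on by duplex RNA, rose in SW780 to 246 ± 1.2 against 88.08 ± 27.6 (1.37, adjusted p = 0.000297), and OAS1 of the same family to 2002 ± 226 against 1259 ± 134 (0.66, adjusted p = 0.00085). TRIM25, the ubiquitin ligase that helps RIG-I to signal, was called higher in both lines (0.66 and 0.52), but siFFluc lay below siEGFP for it by -1.23 in SW780 (adjusted p = 3.83e-06) and also in A549 (adjusted p = 1.21e-05), and against siEGFP alone neither call held (adjusted p = 0.834 and 0.926). Between the control duplexes 1 of the 12 was higher and 1 lower in each line.

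Of 15 tested adaptors and kinases, 2 were higher and 8 lower in SW780 controls, with 2 and 5 after median scaling and 1 and 6 after quantile normalization. TBK1, the kinase that phosphorylates IRF3, was higher (2880 ± 153 in SW780 and 2086 ± 36.3 in A549, difference 0.46), and AZI2, an adaptor of that kinase, was lower (-1.75). Under siKDM3A in SW780, TBK1 and AZI2 were higher (0.34 and 0.51) and TICAM1, the adaptor of TLR3, lower (-1.33, adjusted p = 0.0486, at a signal of 55.2 ± 60.2 against 130.4 ± 36.5). These 3 calls each ended under at least 1 other setting, TBK1 after median scaling, AZI2 against siEGFP alone and TICAM1 against either control alone. In A549, 1 of the 15 was higher and 0 lower under siKDM3A, and siFFluc against siEGFP gave 0 in SW780 and 1 higher in A549. Of 5 tested genes of DNA sensing, STING1 was higher in SW780 controls (1.85) and CGAS and IFI16 lower (-1.43 and -1.20), and siKDM3A raised 2, AIM2 and SAMHD1, in SW780 and lowered 1, SAMHD1, in A549. After median scaling 0 of these genes passed in SW780, and in A549 1 was higher and 0 lower. Of 9 tested genes of the eIF2 arm, on which PKR acts, 3 were higher and 5 lower in SW780 controls, with 4 and 3 after median scaling. Under siKDM3A 2 were higher in SW780, EIF2AK3 and ATF4 (0.35 and 0.25), and 1 in A549, EIF2S1 (0.28), while after median scaling 0 were higher and 1 lower in SW780. In SW780, PPP1R15B was higher with siFFluc (0.52, adjusted p = 0.00325).

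Interferon genes themselves gave little signal, except IFNK in A549. Of 21 listed ligands 18 had a probe set of their own and 4 passed the filter. IFNB1, an interferon gene that IRF3 switches on, had 1.9 to 3.2 in SW780 and 1.6 to 5.7 in A549 over all arrays. IFNK, an epithelial type I interferon, had 14.75 ± 9.27 in SW780 controls and 837.4 ± 46.2 in A549 controls (adjusted p = 6.91e-11). The SW780 level lies under the filter signal of 33.6 and near the pseudocount, which therefore bears on the size of the difference: -4.85 on the scale used and -6.03 to -3.52 over the settings tried. None of the 4 ligands passed for siKDM3A in either line or for siFFluc against siEGFP. IFNK on siKDM3A arrays had 5.15 ± 4.45 in SW780 and 1162 ± 54.3 in A549 (adjusted p = 0.189 and 0.229). The spread of a gene was estimated over both lines together, so the dim SW780 values of IFNK also enter its test in A549. No conclusion about IFNK in A549 is drawn from that test.

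Of 9 tested receptor chains and receptor kinases, 5 were higher in SW780 controls, all of them receptor chains, and 2 were lower, both of them kinases. Both chains of the type I receptor were higher, IFNAR1 at 784.4 ± 61 in SW780 and 486.2 ± 55.4 in A549 and IFNAR2 at 1441 ± 150 and 735.2 ± 86.6 (0.68 and 0.96), as were both chains of the type III receptor, IFNLR1 and IL10RB (1.53 and 1.29). The receptor kinase JAK1 was lower (-0.74). The other kinase called lower was TYK2 (-0.27, adjusted p = 0.043). Its call ended after median scaling, after quantile normalization and with siEGFP alone (adjusted p = 0.663), and JAK2 did not pass. Under siKDM3A in SW780, IL10RB was higher and JAK1 lower (0.35 and -0.39), and in A549 IFNLR1 was lower (-0.57). After median scaling 0 were higher and 2 lower in SW780, and 0 passed in A549. JAK1 was also higher with siFFluc than with siEGFP in SW780 (0.34, adjusted p = 0.0333), a call that ended after median scaling and in 7 other settings, with a highest adjusted p of 0.172 without SW780 siEGFP replicate 2. A list of other IRFs, which also held the IRF2-binding protein genes IRF2BP1 and IRF2BP2, had 7 tested genes. Of these 7, 2 were higher (IRF1 and IRF2) and 2 lower (IRF8 and IRF2BP2) in SW780 controls. Under siKDM3A 0 of them changed in SW780 and 2, IRF2 and IRF2BP2, were lower in A549. Of 10 tested negative regulators, 4 were higher and 5 lower in SW780 controls. USP18, which restrains the type I receptor and is itself induced by interferon, had 220.9 ± 39.1 in SW780 and 1035 ± 177 in A549 (-2.15). Under siKDM3A 2 of them were higher in SW780, USP18 (0.61) and the ubiquitin-like ISG15 (0.59), and in A549 ISG15 and PTPN2 were higher (0.39 and 0.25) and TNFAIP3 lower (-0.42). Many of these smaller calls depended on the setting. In SW780 those of DDX60, AIM2, SAMHD1, EIF2AK3, ATF4, IL10RB and USP18 under siKDM3A ended after median scaling, and that of JAK1 against siEGFP alone. In A549 those of SAMHD1, IFNLR1 and IRF2BP2 ended after median scaling and those of IRF2, PTPN2 and TNFAIP3 against siEGFP alone, and the highest adjusted p over all settings was 0.102 for ISG15 and 0.159 for EIF2S1.

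Interferon-induced genes were read from a list of 12, all of which were tested. Binding or activity of ISGF3 was not measured, so the list does not show which factor acted on them. In SW780 controls 11 of 12 were lower than in A549 and 0 higher, with a list median of -3.14. IFI27 had 76.28 ± 28 in SW780 and 5378 ± 86.3 in A549 (-5.92, adjusted p = 1.61e-15), IFIT1, which binds viral RNA, 232.8 ± 54 and 7760 ± 879 (-4.98), and MX1, a GTPase that blocks viruses, 155.8 ± 62.5 and 2496 ± 289 (-3.94). XAF1 was the one that did not pass (-0.19, adjusted p = 0.198). Under siKDM3A in SW780, 11 of 12 were higher and 0 lower, with a list median of 1.15 beside 0.03 over all genes. Among the 11, the call of OASL (0.51, adjusted p = 0.0121) ended against siFFluc alone (adjusted p = 0.136). IFI27 rose to 409.4 ± 21.9 (2.26), IFIT1 to 1054 ± 31.7 (2.13, adjusted p = 4.97e-09) and MX1 to 562.9 ± 7.07 (1.83). HERC5 did not pass (0.88, adjusted p = 0.0508). In A549, 3 of 12 were higher under siKDM3A, IFIT1, IFIT2 and IFIT3 (0.52, 0.33 and 0.32), and against siFFluc alone 1, IFIT1. The responses differed between lines for 8 of 12, all larger in SW780, and between 5 and 9 of 12 when 1 array was left out. With siFFluc against siEGFP, IFIT1, IFI27 and MX1 were higher in SW780 (0.52, 0.77 and 0.91) and IFIT2 in A549 (0.71).

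**Figure D4:**
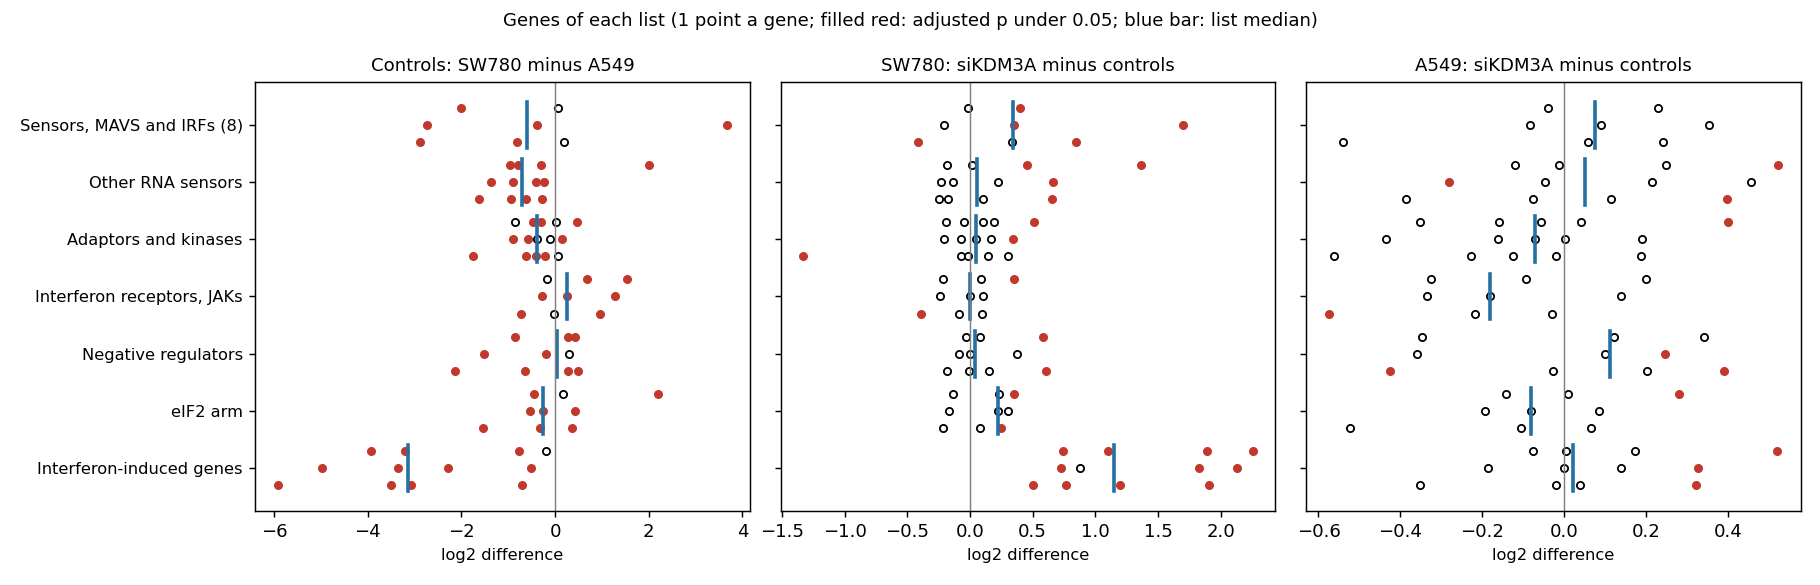
Log2 difference (horizontal axes, which differ in scale) of each tested gene of 7 groups of the pathway in the line comparison of controls and the siKDM3A comparisons, 1 point a gene, filled red where the adjusted p is under 0.05, with a blue bar at each list's median. The interferon-induced genes sit lowest in the first panel (median -3.14) and highest in the second (1.15).

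Likeness across arrays was described after centring each gene within its line, over 12 arrays that share the scaling of their array, so that the values describe a pattern only. IRF9 was most like IFIT1, IFI6 and IFI27 (Pearson r of 0.986, 0.986 and 0.978), all on the list of interferon-induced genes. RIGI was most like AIM2 (0.962), DUSP10 and PMAIP1, and IRF7 was most like DNAJC9 (0.948). For IFIH1 the first was WDR45 (0.929), for TLR3 XRN2 (0.909), for EIF2AK2 TPMT (0.948), for MAVS MYL3 (0.87) and for IRF3 MYL10 (0.955). Among the 8 genes the highest value was 0.9, between IRF7 and IRF9, followed by 0.78 between RIGI and IRF9, and the lowest was -0.85, between IRF3 and IRF9. TLR3 and MAVS did not exceed 0.28 with any of the others.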

How the data were processed

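The authors deposited 1 table of signal intensities for 54675 probe sets on 12 arrays, made with MAS5 per the submitters' processing notes; no version is stated there. Every array had the same trimmed mean of 500.1, leaving out 2% at each end. The 62 control probe sets were removed. Of 54613 others, the annotation of 2016 gave 1 symbol to 41091, several to 1801 and none to 11721, and 41037 were updated by gene number. Probe sets with a mean signal of at least 33.6 (40th percentile) were kept, 32768 in all.

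Signals were taken as log2(signal + 16). Group means of 6 groups were fitted to the probe set of highest mean per gene, 14061 genes, in limma 3.58.1 (R 4.3.3) with a trended prior variance and Benjamini-Hochberg adjustment, and 0.05 was the threshold. Controls are the average of the siFFluc and siEGFP means. The number of arrays limits the precision. The 8 genes, the 9 further lists and the 5 marker lists were chosen with earlier results of these data known. Named from each list are at most 6 genes a comparison and direction. One listed gene is not reported here. Alternatives were the pseudocount, filter, scaling, prior variance, probe sets, control duplex, replicate block and leaving out each array. The line difference under siKDM3A and the list counts under these settings were added after seeing the data. Promoters are from RefSeq (GRCh38.p14). Figures used matplotlib 3.10.9.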

Additional observations from a re-analysis of the deposited data

Results flagged for a closer look

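The response to siKDM3A differed between SW780 and A549, by limma's test of the difference, for 14 of the genes described. Of all 14061 genes tested, 387 (2.75%) passed that test, and the lists were chosen with earlier results of these data known. The 14 were IRF9, by 1.46 (log2, SW780 minus A549), 8 interferon-induced genes, 2 RNA sensors, 2 genes of DNA sensing and 1 receptor chain. Among the interferon-induced genes the difference was 2.26 for IFI44L, 2.25 for IFI27, 2.08 for RSAD2, 1.66 for MX1, 1.61 for IFIT1, 1.2 for XAF1, 0.96 for IFI6 and 0.79 for CMPK2. It was 1.12 for OAS2 and 0.71 for OAS1, 0.63 for AIM2, 0.56 for SAMHD1 and 0.68 for IL10RB. Each of these was larger in SW780. The call ended under at least 1 other setting for 8 of the 14, namely OAS1, OAS2, AIM2, SAMHD1, IL10RB, RSAD2, XAF1 and CMPK2, with highest adjusted p values of 0.104, 0.142, 0.158, 0.158, 0.128, 0.0864, 0.0975 and 0.198 in that order.

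IFIH1 in the 4 A549 control arrays was set apart by 1 sample. The second siEGFP array, at 474.7, lay below the others at 661.4 to 698.2, and its gap to the nearest made up 0.859 of the range of the 4 log2 values. Chance marks about 1 in 20 such groups, and 16 were examined. Without that array the difference of IFIH1 between SW780 and A549 controls was -0.93 (adjusted p = 1.38e-05).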

How the results depend on the processing

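The 8 genes in 7 comparisons gave 56 values, which were set against other settings 1192 times. The side of the threshold was kept in 1155 of these, and a call ended in 9 and appeared in 27. In 1 more a call appeared with the opposite sign: IRF3 between the lines was -0.32 under siKDM3A. The 1155 overstate the stability, because many settings left out an array that does not enter the contrast, which leaves its difference unchanged. Others took 1 control duplex alone or the siKDM3A arrays of both lines, which are other contrasts. Direction was compared only where a call was made, so some values among the 1155 changed sign without a call. MAVS under siKDM3A in SW780, for example, ran from -0.23 to 0.20 with 1 array left out. For MAVS between the control lines a call appeared with quantile normalization (adjusted p = 0.0469), and with the replicate block (0.0415). Of the 8 genes, siKDM3A in SW780 called 3 against siFFluc alone and 3 to 5 with 1 array left out. In A549 it called 2 with a pseudocount of 64, 3 after median scaling (where 2618 of all 14061 genes were called, 84.5% of them higher), 1 against siEGFP alone (where 8.04% were called) and 0 to 2 with 1 array left out. SW780 siFFluc against siEGFP gave 2 after quantile normalization. The response difference gave 2 after median scaling and 1 to 2 with 1 array left out, and the same contrast of control duplexes 0 to 1. Leaving out an SW780 array left the siKDM3A differences in A549 as they were (0.241 for IRF9, 0.229 for EIF2AK2 and 0.355 for IRF7). Such an array enters only the estimate of the spread and the adjustment. The cause of the other changes was not tested.

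Counts over all genes moved more. With all kept probe sets, more features tested, they were 19832 between the control lines, 2514 and 2647 for siKDM3A in SW780 and A549, 1280 for siFFluc in SW780 and 8 for its difference between lines. Without a trend in the prior variance they were 876 and 879 for siKDM3A in SW780 and A549, 223 and 236 for siFFluc, 84 for the response difference and 0 for the duplex difference. Median scaling gave 2618 for siKDM3A in A549, 412 for siFFluc in SW780, 1937 for the response difference and 0 for the duplex difference. Quantile normalization gave 453 for siFFluc in SW780 and 5 for the duplex difference, as did a pseudocount of 1 (5). Against siEGFP alone siKDM3A in SW780 gave 871 and the response difference 77, which was 214 with no filter. With 1 array left out the counts ran from 737 to 2605 and 524 to 2379 for siKDM3A in SW780 and A549, 184 to 1928 and 176 to 583 for siFFluc, 41 to 951 for the response difference and 0 to 482 for the duplex difference.

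Median scaling moved the median of all genes from -0.11 to 0.03 between the control lines, from -0.02 to 0.12 for siKDM3A in A549 and from 0.04 to -0.21 for the response difference. The share of calls that were higher became 18.4% for siKDM3A in SW780 (48% as deposited), 84.5% in A549 (45.6%), 6.09% for the response difference (64.6%) and 43.2% for siFFluc in SW780 (53.4%, and 43.3% after quantile normalization). Same-numbered arrays did not deviate together (r from -0.03 to 0.02), so the replicate numbers name arrays. A replicate block gave 238 genes for the response difference, against 387 without it, and left the calls of the 8 genes as they were apart from MAVS.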
